A study of Arabidopsis thaliana with 12 samples.

Results

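HYH (AT3G17609), UGT78D2 (AT5G17050) and DFR (AT5G42800) are 3 Arabidopsis genes of light signalling and flavonoid synthesis. They were followed over 12 Affymetrix ATH1 arrays, and they are 3 of 13356 genes that the annotation at hand pairs alone with a probe set. The genes were chosen by their measured signals, namely their log2 values over the 6 groups and the difference between the arrays numbered 1 and 2. The values that chose them are given below as a description, without a test.

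The study compared aerial parts of wild type (wt), of the mutant aba3-1, which makes too little of the hormone abscisic acid (ABA), and of the lines S14-150, S15-118, S58-2 and S82-2, with 2 arrays for each of the 6 groups. The labels speak of 4 recessive suppressors of aba3-1, found by leaf temperature, and the 4 S lines are taken to be these, so that 5 of the 6 groups would carry aba3-1. The plants stood on compost at 21 °C in days of 8 h light, followed by 16 h of darkness, and none was treated. The labels give no age, no ecotype and no mapped gene for the lines, and each array carries the number 1 or 2 without a word on what the number stands for.

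Flavonoids are made from phenylalanine through chalcones to dihydroflavonols, where the pathway divides into flavonols, which screen ultraviolet light, and anthocyanins, the red and purple pigments of stressed leaves. HYH is a bZIP transcription factor and the closest relative of HY5. Both are held low in darkness by COP1-dependent protein breakdown, and both act in the induction of flavonoid genes by light. DFR, dihydroflavonol 4-reductase, catalyses the first step on the anthocyanin side. UGT78D2 adds glucose to the 3-position of flavonols and of anthocyanidins and so serves both branches. In leaves these genes are known to respond to light, to sugars and to the time of day.

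Signals were log2 GCRMA values of probe sets, and the median over all probe sets lay between 3.58 and 3.73 on the 12 arrays. The table holds no detection calls. A log2 signal of 4 was therefore used as the floor of the tests, and 45.5% to 46.9% of probe sets lay above it on each array. Values below it are named as such. Of the leaf markers listed, RCA, the activase of Rubisco, had a probe set, with signals from 12.46 to 13.36. Of the root markers, PYK10, a beta-glucosidase of roots and seedlings, had one, with signals from 4.63 to 7.20. No flower or seed marker of the list was paired with a probe set, so the absence of flowers was not tested. In whole aerial parts, fewer cells of a type and less RNA per cell cannot be told apart. S58-2 number 1 stood apart in its ribosomal RNA control probe set, at 3.77 against 7.19 to 9.78 on the other 11 arrays, and the members' differences without S58-2 are given beside those over all groups.

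HYH was read by 1 probe set, 258349_at. Its log2 signal on the arrays numbered 1 was 3.98 in wt, 4.78 in aba3-1, 4.20 in S14-150, 4.45 in S15-118, 4.41 in S58-2 and 4.12 in S82-2. In number 2 it was 8.99 in wt, 8.75 in aba3-1, 8.96 in S14-150, 9.25 in S15-118, 8.98 in S58-2 and 8.80 in S82-2. All 6 arrays numbered 2 were thus far above all 6 numbered 1, and there was no overlap. The mean went from 4.32 ± 0.29 (SD, n = 6) to 8.96 ± 0.18, a difference of 4.63 ± 0.36 (SD of the 6 groups), or 24.8-fold. By group the difference lay between 3.97, in aba3-1, and 5.01, in wt, and without the S58-2 arrays its mean was 4.64. The value of wt number 1 is just under the floor. HYH sat between the 53.8th and the 62.3rd percentile of all probe sets on the arrays numbered 1, close to the floor, and between the 95.3rd and the 96.6th on those numbered 2.

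UGT78D2 was read by 246468_at. Its log2 signal on the arrays numbered 1 was 6.72 in wt, 6.42 in aba3-1, 6.04 in S14-150, 6.10 in S15-118, 6.28 in S58-2 and 6.92 in S82-2. In number 2 it was 10.72 in wt, 10.21 in aba3-1, 10.27 in S14-150, 9.93 in S15-118, 9.69 in S58-2 and 10.45 in S82-2. Again each array numbered 2 exceeded each array numbered 1. The mean went from 6.41 ± 0.35 (SD, n = 6) to 10.21 ± 0.37. The difference of 3.80 ± 0.30 (SD of the 6 groups) is 13.9-fold, with a range from 3.41 in S58-2 to 4.23 in S14-150, and 3.88 without the S58-2 arrays. Unlike HYH, the gene was well above the floor on all 12 arrays, from the 77.9th percentile upwards, and on the arrays numbered 2 it was at or above the 97.5th.

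DFR, read by 249215_at, ran the other way. In number 1 its log2 signal was 5.47 in wt, 4.85 in aba3-1, 3.69 in S14-150, 4.03 in S15-118, 5.47 in S58-2 and 5.65 in S82-2. In number 2 it was 2.85 in wt, 2.66 in aba3-1, 2.43 in S14-150, 2.39 in S15-118, 2.80 in S58-2 and 3.54 in S82-2. In each group the array numbered 2 was lower, and the highest of them, S82-2 at 3.54, lay just under the lowest numbered 1, S14-150 at 3.69. The mean went from 4.86 ± 0.83 (SD, n = 6) to 2.78 ± 0.42. The difference was -2.08 ± 0.55 (SD of the 6 groups), or 4.23-fold lower, between 2.39-fold in S14-150 and 6.36-fold in S58-2, and -1.96 log2 without the S58-2 arrays. All 6 values on the arrays numbered 2, and that of S14-150 number 1, are under the floor of 4, so these folds compare a fitted signal with one near background.

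**Figure D1:**
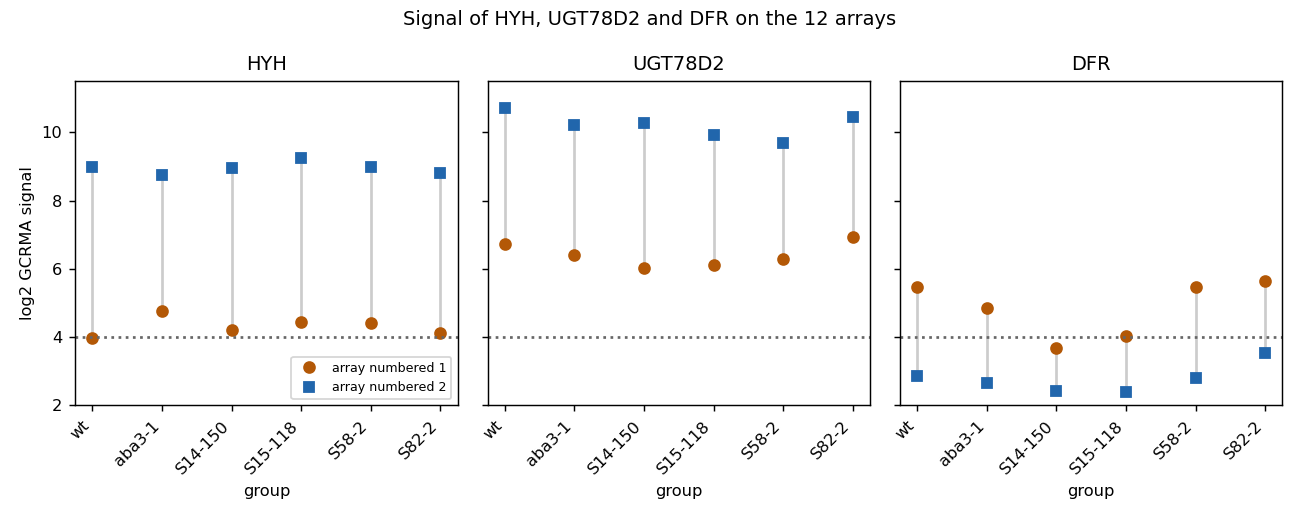
Log2 GCRMA signal (vertical axis) of HYH, UGT78D2 and DFR in the 6 groups (horizontal axis), with 1 point per array, circles for arrays numbered 1 and squares for arrays numbered 2; grey lines join the 2 arrays of a group and the dotted line is the floor of 4. HYH and UGT78D2 lie higher on every array numbered 2, and DFR lies lower, between 2.39 and 3.54.

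The median absolute difference between the numbers was 0.28 log2 over the 11561 probe sets tested, 9.41% of them differed by at least 1 and 0.605% by at least 3. Counted from the most positive difference, HYH was in place 9 and UGT78D2 in place 22. By absolute size DFR was in place 199. HYH exceeded UGT78D2 in its difference in 6 of 6 groups, by 0.18 to 1.16 log2. Of the variation of HYH over the 12 arrays (sum of squares), 99.1% lay between the numbers and 0.378% between the groups. For UGT78D2 these shares were 97.1% and 2.36%, and for DFR 75.2% and 20.5%. The median probe set had 28.4% between numbers and 40.9% between groups.

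**Figure D2:**
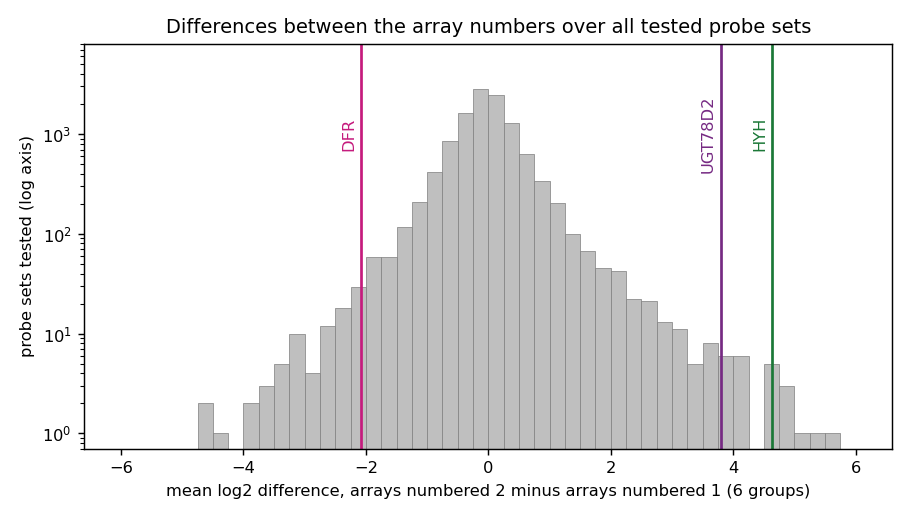
Number of tested probe sets (vertical axis, log scale) by their mean log2 difference between arrays numbered 2 and 1 over the 6 groups (horizontal axis, bins of 0.25), with the 3 genes as vertical lines. HYH at 4.63 and UGT78D2 at 3.80 are in the right tail and DFR at -2.08 is in the left.

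The 2 arrays of a group were 1 of each number, so the spread within a group held the number difference. HYH in wt was thus 6.49 ± 3.54 (SD, n = 2) and in aba3-1 6.77 ± 2.81. The groups were therefore compared within each number, with 1 array per group and no replicate. The order of the groups for HYH differed between the numbers. In number 1, aba3-1 was highest and wt lowest, 0.80 apart. On those numbered 2, S15-118 was highest and aba3-1 lowest, 0.50 apart. The difference between aba3-1 and wt was 0.80 for number 1 and -0.24 for number 2, so it had no common direction. These ranges stood at the 71.1st and the 33.5th percentile of all tested probe sets, whose median ranges were 0.60 and 0.63. By the mean of the 2 arrays the order was S15-118 (6.85), aba3-1 (6.77), S58-2 (6.70), S14-150 (6.58), wt (6.49) and S82-2 (6.46). The SD within a group, 2.81 or more, holds the number difference, so it does not gauge the steps between neighbours in this order.

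In both numbers UGT78D2 had its highest signals in wt and S82-2, and the other 4 groups followed. From wt, aba3-1 differed by -0.30 log2 in number 1 and -0.51 in number 2. S82-2 differed from aba3-1 by 0.50 and 0.24, S15-118 by -0.32 and -0.28, and S58-2 by -0.14 and -0.52. S14-150 differed from aba3-1 by -0.38 in number 1 and 0.06 in number 2, without a common direction. The order by mean was wt (8.72), S82-2 (8.69), aba3-1 (8.32), S14-150 (8.16), S15-118 (8.02) and S58-2 (7.99). Each step between neighbours was at most 0.37. Here too the SD within a group, 2.41 or more, holds the number difference and does not gauge these steps.

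Of the 3 genes DFR spanned the widest range over the groups in both numbers. On the arrays numbered 1 it spanned 1.96 log2, at the 96.8th percentile of the tested probe sets, and on those numbered 2 it spanned 1.15, at the 85.7th. S82-2 was highest in both numbers, and S14-150 and S15-118 were the 2 lowest in both. Against aba3-1, S82-2 was at 0.80 and 0.88 log2 in numbers 1 and 2. S14-150 was at -1.16 and -0.23, S15-118 at -0.82 and -0.27, and S58-2 at 0.62 and 0.14. Against wt, aba3-1 was at -0.62 and -0.19, S14-150 at -1.78 and -0.42 and S15-118 at -1.44 and -0.46. S58-2 was within 0.05 of wt in both numbers, with its number 1 array, whose ribosomal control was low, at the same 5.47 as wt. The order by mean was S82-2 (4.60), wt (4.16), S58-2 (4.14), aba3-1 (3.76), S15-118 (3.21) and S14-150 (3.06). The SD within a group, between 0.89 and 1.89 (n = 2), again holds the number difference and does not gauge the steps between neighbours. These comparisons share the aba3-1 or the wt arrays. On the arrays numbered 2 all DFR values are below the floor, so that the smaller spread there is between signals near background.

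**Figure D3:**
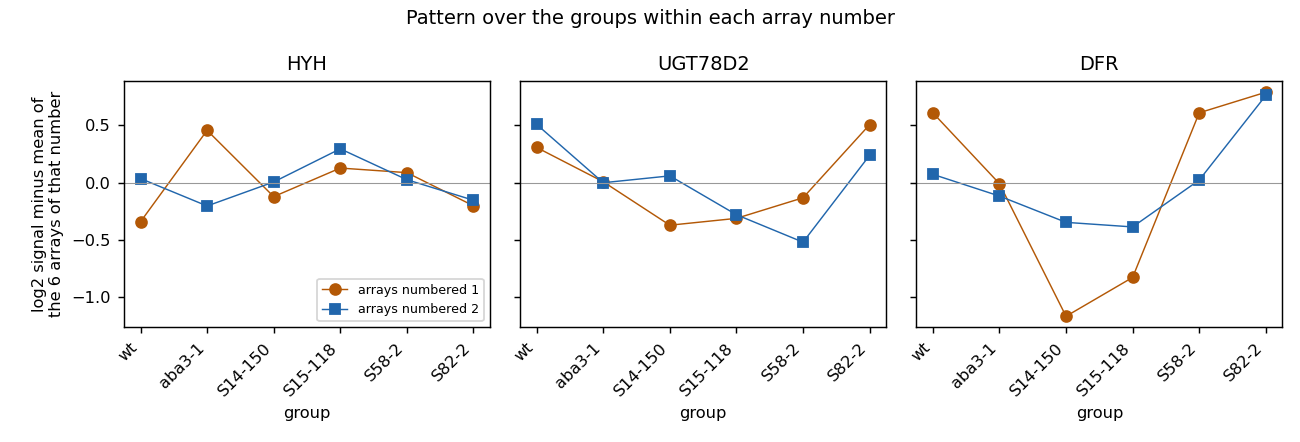
Log2 signal of each gene minus the mean of the 6 arrays of the same number (vertical axis) by group (horizontal axis), circles for arrays numbered 1 and squares for those numbered 2; lines guide the eye. DFR has its lowest points in S14-150 and S15-118 and its highest in S82-2 in both numbers, UGT78D2 has its highest in wt and S82-2, and the 2 patterns of HYH do not run alike.

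Across the 6 arrays numbered 1, UGT78D2 and DFR had a Pearson r of 0.835 (Spearman 0.899), and across the 6 numbered 2 an r of 0.387 (Spearman 0.543). HYH had an r of -0.424 and -0.356 with UGT78D2 and of -0.239 and -0.563 with DFR in numbers 1 and 2. These are descriptions over 6 arrays that share 1 normalization. No r over all 12 arrays is given for the 3 genes, because the arrays form 2 separate sets by number.

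Further flavonoid enzymes were taken from a list of 23 loci of core, decorating and transport steps, of which 10 have a probe set of their own and 5, beside UGT78D2 and DFR, passed the floor. With limma, 3 of these 5 were higher on the arrays numbered 2 (adjusted p under 0.05), against 21.8% of all tested probe sets, and 1 was lower, against 26.2%. CHIL, a chalcone isomerase-like protein that raises flavonoid output, rose from 3.95 ± 0.46 (SD, n = 6) to 4.96 ± 0.28, by 1.00 log2 (SE 0.112, adjusted p = 4.91e-05), and was higher in 6 of 6 groups. On the arrays numbered 1 its values in S14-150 (3.78), S15-118 (3.9) and S58-2 (3.22) were under the floor. UGT78D1, the flavonol 3-rhamnosyltransferase and a close relative of UGT78D2, rose by 0.74 (SE 0.107, adjusted p = 0.000287), also in 6 of 6 groups, from 7.40 ± 0.29 to 8.13 ± 0.11. UGT89C1, the flavonol 7-rhamnosyltransferase, rose by 0.65 (SE 0.154, adjusted p = 0.00586), with no difference in wt, where both arrays read 6.93, and up to 1.18 in S82-2. All 3 differences are well short of the 3.80 of UGT78D2. The median difference of the 5 genes, which is the value of UGT89C1, was 0.65, beside -0.0417 over all tested probe sets. It is no support for a direction of the list, since UGT75C1 and UGT79B1, described below, passed the floor only through arrays numbered 1.

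UGT79B1, which adds xylose to anthocyanins, was the gene that fell. Its log2 signal in number 1 was 4.10 in wt, 3.91 in aba3-1, 2.69 in S14-150, 3.38 in S15-118, 4.52 in S58-2 and 5.56 in S82-2. On those numbered 2 it was between 2.51 and 2.67 in all groups, under the floor. The difference was -1.47 (SE 0.279, adjusted p = 0.00164, limma), lower in 6 of 6 groups. UGT75C1, the anthocyanin 5-glucosyltransferase, was at 4.73 in wt, 3.71 in aba3-1, 3.16 in S14-150, 3.49 in S15-118, 3.97 in S58-2 and 5.89 in S82-2 on the arrays numbered 1, and between 3.34 and 3.81 on those numbered 2. Its difference of -0.63 (SE 0.271) did not pass the test (adjusted p = 0.0818), and it was lower in 4 of 6 groups. Both genes passed the floor only through arrays numbered 1, as DFR did, so their count is no support for a direction of the list. With no floor, the 8 paired genes beside UGT78D2 and DFR still gave 3 higher and 1 lower.

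The 3 paired flavonoid genes that did not pass the floor had little signal. 5MAT, the anthocyanin malonyltransferase, read 3.22 in wt and 3.6 in S82-2 on the arrays numbered 1 and at most 2.71 on each other array. UGT78D3, the flavonol arabinosyltransferase that lies 2 protein-coding genes away from UGT78D2 on chromosome 5, was between 2.76 and 3.19 on all arrays. BAN, the anthocyanidin reductase of the seed coat, was between 2.09 and 2.12. The number difference of UGT78D3, 0.14, is between signals under the floor.

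**Figure D4:**
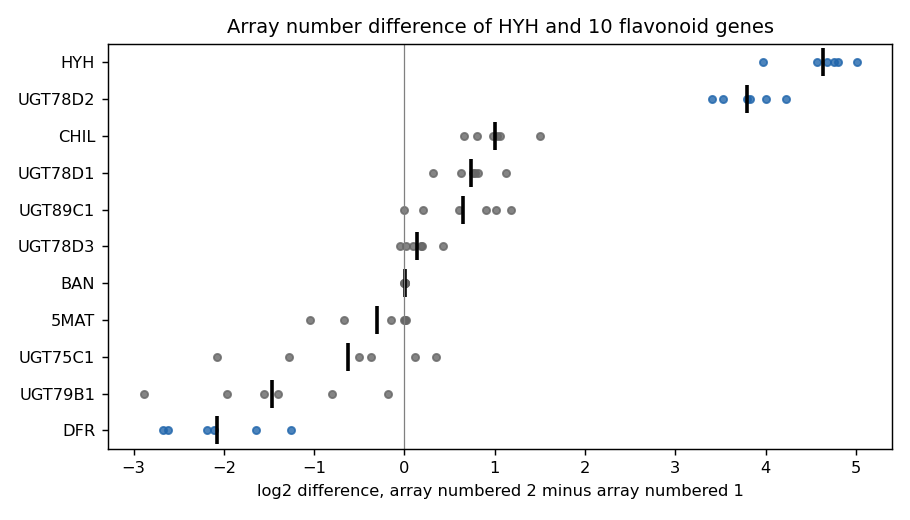
Log2 difference between the arrays numbered 2 and 1 (horizontal axis) for HYH and 10 flavonoid genes (vertical axis), with 1 point per group, blue for HYH, UGT78D2 and DFR and grey for the others, and a bar at the mean of the 6 groups. HYH and UGT78D2 stand apart at 3.41 to 5.01, CHIL, UGT78D1 and UGT89C1 lie between 0 and 1.5, and UGT79B1 and DFR lie below 0 in every group.

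DFR, UGT79B1, UGT75C1 and 5MAT all act on the anthocyanin side, a grouping made after their values were seen. On the arrays numbered 1, S82-2 had the highest signal of each of the 4. Among the other tested flavonoid genes it was also highest for UGT78D2 (6.92) and CHIL (4.59), and not for UGT78D1 or UGT89C1. Over the 6 arrays numbered 1 DFR had a Pearson r of 0.901 with UGT79B1 (Spearman 0.986) and of 0.804 with UGT75C1 (Spearman 0.986). These are 2 of 30 correlations computed between the 3 genes and the 5 tested list genes, given as a description with no test. Without the 2 arrays farthest from the median of DFR, its r with UGT79B1 was 0.731. On the arrays numbered 2 its r with UGT79B1 was 0.780 (Spearman 0.348), with UGT79B1 values that span 0.16 log2 below the floor. There the r of DFR with UGT75C1 was 0.605 (Spearman 0.029), and -0.250 without the 2 arrays farthest from the median of DFR. UGT78D2 had an r of 0.951 with UGT75C1 on the arrays numbered 1 (Spearman 0.943), 0.762 without the 2 arrays farthest from its median, and 0.115 on those numbered 2.

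**Figure D5:**
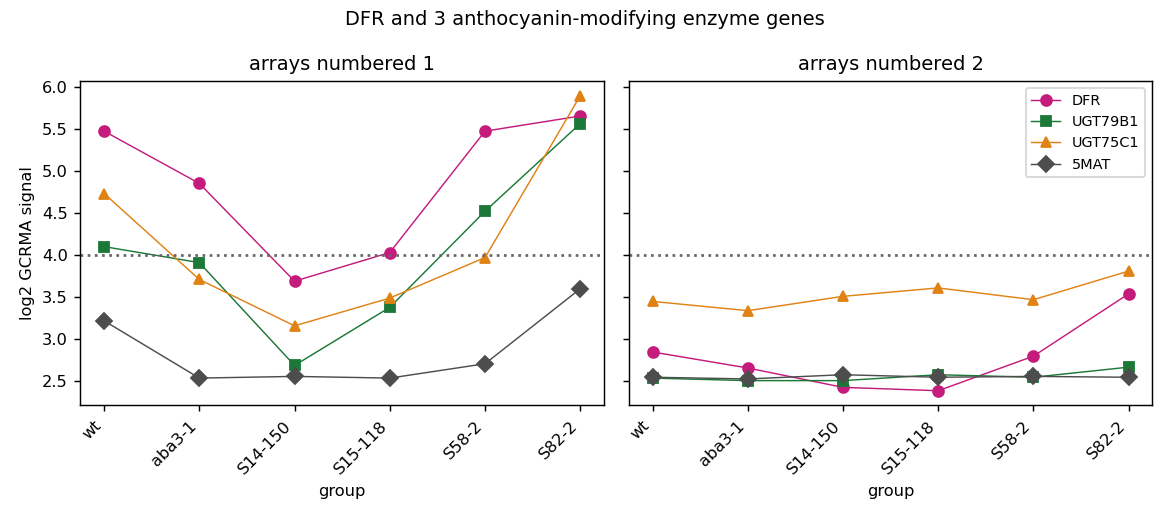
Log2 GCRMA signal (vertical axis) of DFR, UGT79B1, UGT75C1 and 5MAT by group (horizontal axis), for arrays numbered 1 on the left and 2 on the right; the dotted line is the floor of 4 and lines guide the eye. On the left S82-2 is highest for each gene, with 5.65 for DFR and 5.56 for UGT79B1, and on the right all values lie under the floor.

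Between the groups, 0 of the 5 list genes were called by the F test without the block, against 1.3% of all tested probe sets, and 0 had an unadjusted p under 0.05 (limma). Without the block the spread holds the number difference, so this fit could hardly call a gene that differs by number. For CHIL in S82-2 with aba3-1 the SE was 0.641 without the block and 0.194 with it. The F test of the blocked fit, which holds the array number as a term, called CHIL (adjusted p = 0.0452), against 14.1% of all. CHIL was highest in S82-2 in both numbers, at 4.59 and 5.39, and lowest in S58-2 for number 1, at 3.22. That lowest value is under the floor and comes from the array whose ribosomal control was low. In the single comparisons, 0 of the 5 were called in either fit. The shares of all tested probe sets, without and with the block, were 0.45% and 4.98% for aba3-1 with wt, 0.502% and 5.86% for S82-2 with aba3-1, 0.0173% and 0.0865% for S14-150, 0.0346% and 0.0865% for S15-118, and 0.00865% and 0.104% for S58-2. For S82-2 with aba3-1, 2 of the 5 had an unadjusted p under 0.05 in the blocked fit, as did 2254 of all 11561 tested probe sets, and the other comparisons had 0 in either fit. In the comparison of S82-2 with aba3-1 the values were 0.62 for CHIL (blocked adjusted p = 0.103), 1.33 for UGT75C1 (0.148) and 0.91 for UGT79B1 (0.350).

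Of the 27 light signalling loci listed, HYH and FHL, a protein that carries phytochrome A into the nucleus, have a probe set of their own. FHL stayed between 2.44 and 2.61 on all arrays, under the floor. HY5, COP1, the photoreceptors, the general phenylpropanoid enzymes and the MYB and bHLH regulators of the pathway were not paired with a probe set alone and are not analysed here.

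Other genes moved between the array numbers beside these. Of the clock-controlled genes, CCL, a transcript whose level follows the clock, fell by 3.11 on the log2 scale (SE 0.163, adjusted p = 2.03e-07, limma), and GI, a component of the clock and of day-length sensing, fell by 0.94 (SE 0.105, adjusted p = 5.1e-05). Both were lower in 6 of 6 groups. Of the 4 tested cold-responsive genes, the genes of the protective proteins COR15A (-1.91), COR15B (-1.97) and COR47 (-0.60) fell and STZ, a zinc finger repressor of stress responses, rose by 1.3, with adjusted p from 1.66e-07 to 0.00731 (limma). STZ read 2.67 in wt and 2.76 in S82-2 on the arrays numbered 1, both under the floor. Of all tested probe sets, 21.8% were called higher and 26.2% lower in this comparison. RCA differed by 0.30 (adjusted p = 0.0600) and PYK10 by -0.15 (adjusted p = 0.593), so neither tissue marker passed the test between the numbers. Between the groups PYK10 was called by the F test of the blocked fit (adjusted p = 0.0254, limma), as were 14.1% of all tested probe sets. Without the block it was not called (0.218), and RCA was called in neither fit. In numbers 1 and 2 PYK10 stood above wt by 2.15 and 2.02 log2 in S15-118, and by 1.02 and 2.11 in S82-2. S14-150 was at 0.79 and 1.88, S58-2 at 0.94 and 0.28, and aba3-1 at 0.58 and 0.81. Extracted RNA per sample was 8.4 to 15 µg for the samples numbered 1 and 5.1 to 12.1 µg for those numbered 2, ranges that overlap. The part of these genes or of RNA yield in the differences of HYH, UGT78D2 and DFR was not tested.

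The annotated probe sets most like each gene were ranked by the smaller of 2 Pearson correlations over the groups, one in each number (n = 6 arrays each, 6072 other probe sets). For DFR the closest was APL3, a subunit of the enzyme that makes ADP-glucose for starch, with r of 0.960 and 0.924, and its number difference was -1.28. AT5G61820, AT1G50000, AT2G46550 and AT5G41460 came next, with r of at least 0.859 and number differences from -2.19 to 0.33. For UGT78D2 the 5 were AT1G29700, AT5G46390, AT1G65230, MYC4 and AT1G51080, with r of at least 0.911. Of these MYC4, a bHLH factor of jasmonate responses, had a difference of 1.91 between numbers, and the other 4 were between -0.92 and 0.00. For HYH the likeness was lower, led by AT2G35736 with r of 0.867 and 0.959, and the next 4, PCME, AT1G78800, AT1G47640 and AT5G36930, had r down to 0.739. Some of the means were under the floor: AT2G35736 in number 1 (3.75) and AT5G41460 in number 2 (3.36). So were PCME (3.77 and 3.75) and AT1G50000 (3.87 and 3.55) in both numbers. These r are the highest picked from 6072 probe sets, given as a description without a test. All 3 lists change when r is taken over the 12 arrays, where the number difference enters. They then share 0, 1 and 2 of the 5 genes for HYH, UGT78D2 and DFR, and AT5G42760, AT5G15950 and AT5G54130 are among the 5 nearest to HYH, with r of at least 0.993.

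The 3 genes lie on chromosomes 3 (HYH) and 5 (UGT78D2 and DFR) of the RefSeq annotation of TAIR10.1. The 5 protein-coding genes on each side were looked at, and 2 tested probe sets were found beside each gene. The neighbour differences between the numbers were 0.43 (BSH) and -0.20 (AT3G17640) beside HYH, 0.14 (AT5G17010) and -0.40 (AT5G17070) beside UGT78D2, and 0.37 (U2AF35B) and -0.27 (AT5G42830) beside DFR. Of these 6, BSH (adjusted p = 0.00825), AT5G17070 (0.0112) and U2AF35B (0.0274) passed the limma test, 2 of them higher and 1 lower, beside the 21.8% and 26.2% of all tested probe sets called in each direction.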

How the data were processed

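RNA of 12 samples was amplified, biotin-labelled (20 µg per array) and hybridised to ATH1 arrays, per the labels' protocols. The deposited values are log2 signals per probe set, made by the authors with GCRMA, per the submitters' processing notes; the version and the log base are not given in the sources used here, and base 2, GCRMA's own scale, was assumed. GCRMA equalises the distributions of the arrays, so a shift shared by all genes would not be seen. Of 22810 probe sets, 64 controls were left out, and the 11561 with a signal above 4 on at least 2 arrays were tested with limma 3.58.1 in R 4.3.3 (lmFit, eBayes), with Benjamini-Hochberg adjustment over all tested and calls at an adjusted p under 0.05. The contrast of numbers used the group as a term. The group contrasts used all 12 arrays without a block, and the replicate number as a block in the alternative. The script was tested on simulated data.

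Array numbers pair the samples: deviations from the group means correlated between equal numbers in all 15 pairs of groups, with r across probe sets from 0.708 to 0.872. No label says that the arrays of a group come from separate plants, so a p-value reflects no more than the scatter among these arrays, possibly a technical one, and their number limits the precision. Probe sets were named through the platform annotation and RefSeq: 13513 were paired with 1 gene, 503 with several and 8730 with none. ABA3, the gene hit in aba3-1, is not analysed here. The members and the 12 gene lists (139 loci, of which 20 have a probe set) were chosen with earlier results of these data known. The named genes are the 3 members, their relatives, list genes with a probe set of their own (at most 6 per direction in a comparison, and 3 where none was called) and the 5 probe sets most like each member. The neighbouring genes and those nearest over all 12 arrays were named after their values were seen. Alternatives were no floor, a floor of 5, quantile normalization, a trended robust prior, the block, and leaving out arrays. Those on single list genes were added after seeing the data. No sequence is shown.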

Additional observations from a re-analysis of the deposited data

Results flagged for a closer look

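In 3 of the tested list genes the difference between the array numbers ran in opposite directions in different groups, each group with 1 array per number, so that the difference between groups was not tested. UGT75C1 was at -2.08 in S82-2 and 0.35 in S14-150. PYK10 was at -1.08 in S58-2 and 0.67 in S14-150. RCA was at 0.90 in S58-2 and -0.02 in S15-118.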

How the results depend on the processing

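Under quantile normalization the 3 genes kept their direction and moved by less than the SD of the 6 groups. The differences were then 4.65 for HYH, 3.78 for UGT78D2 and -2.06 for DFR. Leaving out the pair of any 1 group could not turn a direction, since the 6 differences of each gene share a sign. It can also shift a mean of 6 values by only a part of their SD. Leaving out a pair gave 4.56 to 4.76 for HYH, 3.71 to 3.88 for UGT78D2 and -2.25 to -1.96 for DFR. The number comparison called 5549 probe sets, and 4686 to 5868 with 1 array left out. With a replicate block the calls were 1633 for the F test (150 without), 576 for aba3-1 with wt (52), 677 for S82-2 (58), 10 for S14-150 (2), 10 for S15-118 (4) and 12 for S58-2 (1), each line with aba3-1. Among the 5 list genes the block changed the call of CHIL alone. With no floor the calls were 6 for aba3-1 with wt, 2 of them higher, 1 for S14-150 and 2 for S58-2. S14-150 had 1 call with the trended prior and 1 without both S58-2 arrays. With 1 array left out the counts were 44 to 167 for the F test, 0 to 75 for aba3-1 with wt, 0 to 2 for S14-150, 0 to 3 for S15-118, 1 to 2 for S58-2 and 0 to 85 for S82-2; there were 0 calls without wt replicate 2 for aba3-1 with wt and without S82-2 replicate 1 for S82-2, and a lone array is assumed to vary like the other groups. The cause of these moves was not tested. The flavonoid genes higher in number 2 stayed at 3 throughout. Those lower were 0 with a floor of 5, where UGT79B1 is not tested, and 1 to 2 with 1 array left out, since UGT75C1 passed without either S14-150 array (-0.82, adjusted p = 0.0364 and 0.0363, and up to 0.271 under the other alternatives). PYK10 turned to 0.036 without the S58-2 arrays (either or both) and ran from -0.314 to 0.036 with 1 array left out. Of 63 values of 13 list genes under the other alternatives, 61 kept direction and call. PYK10 turned as above, and RCA passed with the trended prior (adjusted p = 0.0254). With 1 array left out RCA ran from 0.18 to 0.364, the largest without either S15-118 array. Signals under the floor limit the values of DFR, UGT79B1 and UGT75C1, and on the arrays numbered 1 some of those of CHIL and STZ.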
